A study of Paeonia ostii with 18 samples.

Results

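Flower buds of tree peony (Paeonia ostii 'Feng Dan Bai') that had been chilled for 24 d were compared with buds that had not been chilled. The 2 groups were taken from the labels and hold 6 of the 18 arrays of the series, 3 at 24 d and 3 at 0 d. Buds at 24 d are labelled eco-dormant and buds at 0 d endo-dormant. All plants were 4 years old, were potted, and stood at 0 to 4 °C for the time given. No group was kept for 24 d without cold, so time and chilling cannot be told apart. Each replicate pooled mixed buds of 3 plants, 3 buds from each, and was hybridized to 1 single-channel array.

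A dormant bud holds a shoot or flower that has stopped growing. In endo-dormancy the arrest lies within the bud itself and a warm spell does not break it, while in eco-dormancy the bud can grow and waits only for warmth. Cold lasting for weeks is what carries many woody plants from the first state to the second. Gibberellin, a hormone that promotes growth by removing the DELLA repressor proteins, has long been studied in this change of state, and its synthesis and signalling were a main question of the study.

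Signals are given as log2 of the intensity after quantile normalization, in which every array is brought to the same distribution of values, and a difference is the mean of 24 d minus that of 0 d. The test was that of limma, fitted to the 18 arrays together, and a probe was called at a Benjamini-Hochberg adjusted p under 0.05. On the 6 arrays between 82.2 and 96.5% of the probes were well above background, the lowest share being that of 0 d replicate 3. Spots with a flag were left out, which removed 233 probes on 24 d replicate 3 and 7 to 33 on each of the others. The number of arrays limits the precision. No slide held both times: the 0 d arrays lay on slide 1, 24 d replicate 1 on slide 2 and 24 d replicates 2 and 3 on slide 3. Of 10 probes of bud meristem and organ identity 8 were above background on all 6 arrays, with KAN2 and HAM3 the exceptions, as were 12 of 12 of photosynthesis and chlorophyll. Since most probes on these arrays are above background, these counts do not test the labelled tissue.

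After 24 d of chilling, probes of sugar breakdown, the citrate cycle and the proteasome were called mostly or only in the higher direction (8 of 24, 5 of 14 and 5 of 15). MAB1 is counted in both the first and the second list, and not all members of the first belong to glycolysis proper. Without 24 d replicate 3 the second list had no call left and the third had 2. Genes of flowering and of gibberellin signalling were called in both directions, with AGL20 and RGL1 higher and LD and RGA1 lower. In all, 1158 of 14956 probes tested were called, which is 7.74%, with 675 higher and 483 lower at 24 d (4.51 and 3.23%). At an unadjusted p under 0.05 there were 3841. The median size of a called difference was 0.91 on the log2 scale, and 486 called probes differed by at least 2-fold, of which 260 were higher and 226 lower. Of the called probes 673 had an entry in the gene tables used here, and for 195 that entry named a protein or a gene. Those tables list mainly probes that the study had called on these same arrays, so 17.9% of all their probes were called here, and the counts below are not independent evidence. The 32 gene lists drawn from them held 688 probes, of which 64 were higher and 46 lower at 24 d.

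**Figure D1:**
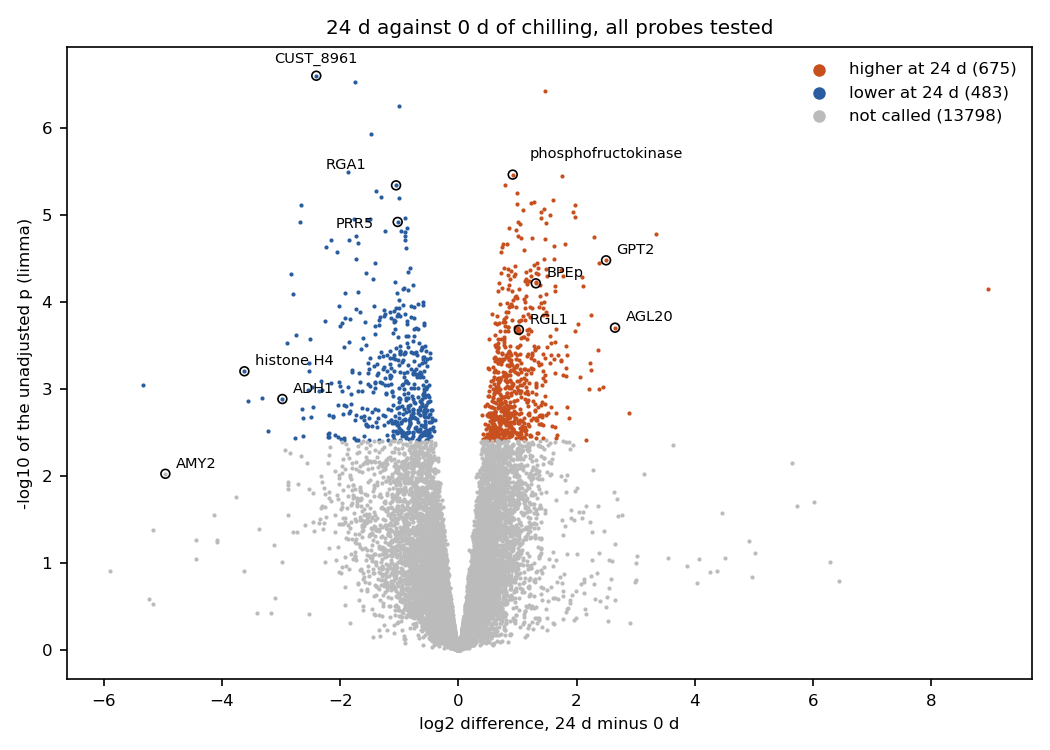
Each point is 1 of the 14956 probes tested, with the log2 difference of 24 d minus 0 d on the horizontal axis and -log10 of the unadjusted p of limma on the vertical axis. Orange marks the 675 probes called higher at 24 d, blue the 483 called lower and grey the rest, and circles mark named probes. Of the circled probes AGL20 and GPT2 lie farthest to the right, at 2.65 and 2.50, and AMY2 lies at -4.96 without being called. The called probe farthest to the right, at 8.96, is not circled.

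Since time and slide coincide, a difference between the slides cannot be told apart from one between 24 d and 0 d within any slide. With slide as a fixed block, which links slides 1 and 2 only through the 12 d arrays, 9 probes were called, 2 of them among the 1158. In that fit 98.4% of the 1158 kept their sign, the median size of their difference was 0.73, and their median standard error was 0.43 against 0.21 without the block. Slide as a random block left 691 calls (403 higher, 288 lower). With only the 6 arrays compared, limma called 0 probes, and 3094 had an unadjusted p under 0.05. CUST_8961, a probe for a protein of no known function that was picked after its values were seen, had the smallest adjusted p (0.00189). It measured 5.06, 6.29 and 5.87 at 24 d, against 8.42, 8.06 and 7.96 at 0 d, a difference of -2.40 (standard error 0.26). Its slide 2 array lay lowest, and it was called with slide as a fixed block (-3.40, adjusted p = 0.00976) and with the slide 2 array alone standing for 24 d.

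**Figure D2:**
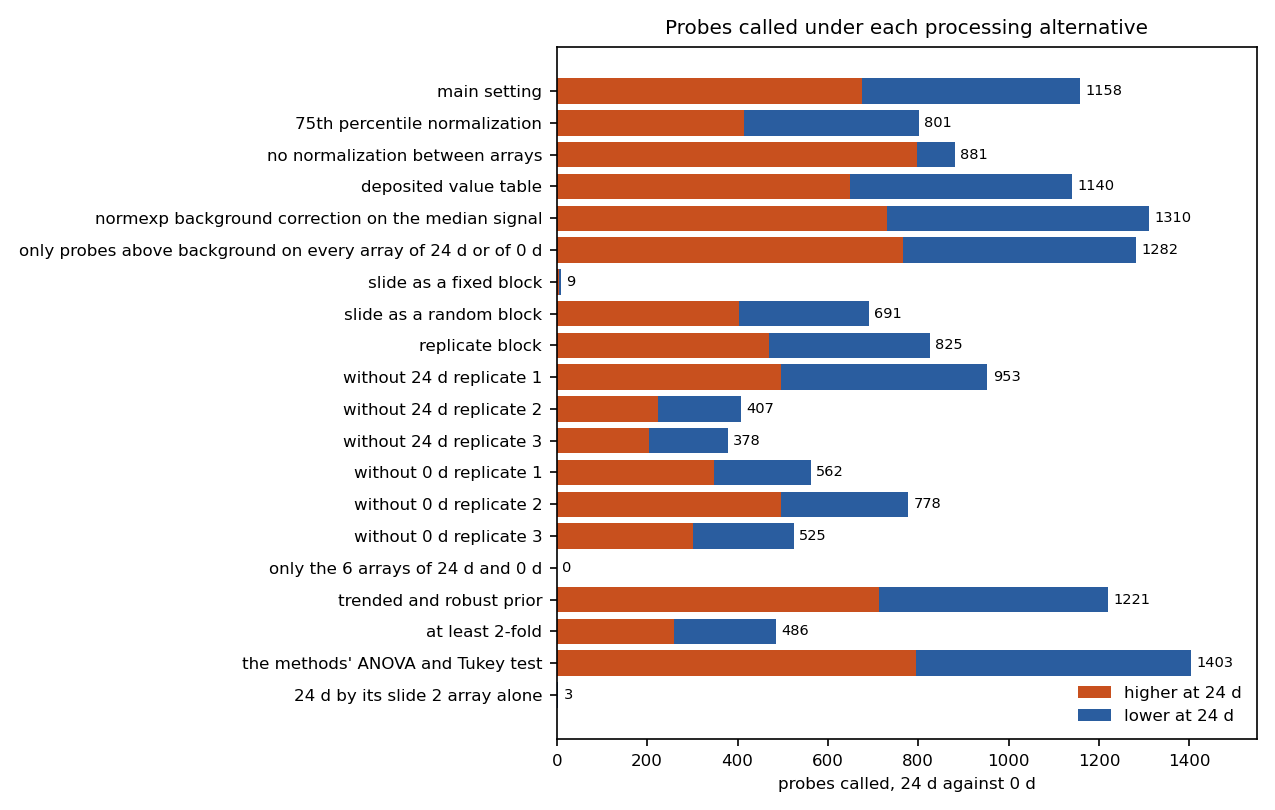
Bars give the number of probes called between 24 d and 0 d under the main setting and under each alternative, orange for probes higher at 24 d and blue for those lower, with the total beside each bar. The total was 1158 in the main setting, 9 with slide as a fixed block and 0 with only the 6 arrays compared.

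AGL20, also known as SOC1, is a MADS-box protein that promotes flowering in Arabidopsis, and its probe (CUST_653) had the largest rise of the called probes with a name. It measured 14.38, 14.83 and 14.88 at 24 d, against 10.91, 12.90 and 12.32 at 0 d. All 24 d arrays lay above all 0 d arrays, which the choice of the largest rises required. The arrays of the 2 times did not overlap for 29.8% of all probes. The slide 2 array of AGL20 lay close to the other 24 d arrays. The difference was 2.65 (standard error 0.53, adjusted p = 0.0134), or 6.28-fold. BPEp, a bHLH protein that limits petal growth in Arabidopsis, measured 12.91, 12.77 and 12.81 at 24 d, against 11.69, 11.35 and 11.51 at 0 d. Here too the choice required arrays that do not overlap, and the difference was 1.31 (standard error 0.23, adjusted p = 0.00867). These were the only 2 probes called among the 10 of bud meristem and organ identity. That share is 20%, beside 17.9% of the probes in the gene tables used. PRR5, a pseudo-response regulator of the circadian clock, fell by 1.03 (standard error 0.16, adjusted p = 0.0053). Its arrays stood at 8.75, 8.78 and 8.35 at 24 d, against 9.71, 9.71 and 9.55 at 0 d. It was the only one of 14 light and clock probes to be called (7.14%). AGL20, BPEp and PRR5 were called with each of the 6 arrays left out in turn. With slide as a fixed block their differences were 1.37, 1.29 and -0.93, and none was called (adjusted p = 0.765, 0.499 and 0.441).

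The other flowering and chromatin genes were split. Of 21 probes on this list 3 rose and 3 fell (28.6% called, beside 17.9% of the probes in the gene tables used). Their median difference was -0.41, beside 0.03 over all probes. AGL20 was 1 of the 3 that rose. VIP4, part of the Paf1 complex that keeps the flowering repressor FLC active in Arabidopsis, had 7.23, 7.27 and 7.13 at 24 d, against 6.20, 6.07 and 5.81 at 0 d (CUST_4018, adjusted p = 0.0215). Its level at 0 d was above background on 2 of 3 arrays, and a further VIP4 probe (CUST_1553) differed by 0.67 and was not called (adjusted p = 0.0817). COL1, a CONSTANS-like B-box protein, rose by 1.42 (adjusted p = 0.0317), with 1 of 3 arrays above background at 0 d. Outside this list BBX32, a further B-box protein, rose by 1.57 (adjusted p = 0.0183). Among those that fell, LUMINIDEPENDENS (LD), a protein of the autonomous flowering pathway in Arabidopsis, differed by -0.88 (adjusted p = 0.0304). MET1, which maintains DNA methylation through cell division, stood at 14.19, 14.54 and 14.24 at 24 d, against 15.07, 15.00 and 15.41 at 0 d, and fell by 0.84 (adjusted p = 0.0357). An ISWI chromatin remodelling ATPase fell by 1.07 (adjusted p = 0.0397). The probe described by an FLC transcript of Arabidopsis was above background on 2 of 3 arrays at each time and had a difference of -0.60 (adjusted p = 0.362). In this group no call but that of AGL20 was kept with every array left out. BBX32 had 0.0584 without 0 d replicate 1, COL1 0.097 without 24 d replicate 3, VIP4 0.0693 without 0 d replicate 3, and LD, MET1 and ISWI up to 0.0891, 0.112 and 0.13. The call of MET1 was lost with each array left out.

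Gibberellin works through the GID1 receptors, which on binding the hormone hand the DELLA repressors to the proteasome. The study had designed primers for 2 of the genes of this pathway that were called here, which are shown as the study's own assays of these genes. Here they were matched to the array probes by gene symbol alone, and which of the probes named RGL1 the second pair matches was not tested.
RGA1 first primer: tggcaatgagtggacgagtgtg
RGA1 second primer: tcagtggcgatcaaggttaggc
RGL1 first primer: tgttcagcaagataatctcaagttggc
RGL1 second primer: ggtaggggcaggtttcatagaagtg
RGA1, a DELLA repressor, measured 8.81, 8.38 and 8.64 at 24 d, against 9.48, 9.54 and 9.97 at 0 d. The highest 24 d array lay under the lowest 0 d array, and arrays of the 2 times did not overlap for 29.8% of all probes. The difference of RGA1 was -1.05 (standard error 0.15, adjusted p = 0.0053). RGL1, named for a DELLA protein of Arabidopsis, went the other way, with 12.63, 13.20 and 13.13 at 24 d, against 11.84, 12.01 and 12.03 at 0 d. It rose by 1.02 (standard error 0.21, adjusted p = 0.0136). AT1G63100, a probe whose description also names RGL1, fell by 0.88 (adjusted p = 0.0165). Thus 1 of 12 probes for gibberellin receptors and DELLA signalling rose and 2 fell. That is 25% called, beside 17.9% of the probes in the gene tables used. The rest were not called. Among them RGA2 differed by 0.69 (adjusted p = 0.117), GAI by 0.68 (0.238), the receptors GID1A and GID1B by -0.33 and -0.75 (0.411 and 0.219), SPY by 0.06 (0.88) and SCL3 by -0.28 (0.754). The enzymes that make or remove gibberellin were not called either, with differences of 0.72 for GA2, an early synthesis enzyme (adjusted p = 0.165), -0.06 for GA20OX, which makes precursors of the active hormone (0.962), and -0.39 for GA2OX8, which inactivates it (0.361). RGA1 was called with each array left out. RGL1 was not without 24 d replicate 2 (adjusted p = 0.0527), nor AT1G63100 without 24 d replicate 3 (0.0618).

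Of 38 further probes that respond to gibberellin 3 rose and 1 fell. Besides AGL20, AS1, a MYB protein that shapes leaves, rose by 0.56 (adjusted p = 0.0379), and AT1G70000 rose by 1.36 (adjusted p = 0.0171). ERD14, a dehydrin that is induced by drying and cold in Arabidopsis, fell by 0.49 (adjusted p = 0.0371). AMY2, an alpha-amylase of starch breakdown, had the most negative difference of all listed probes but also a wide spread. It measured 6.57, 7.98 and 10.48 at 24 d, against 14.39, 12.89 and 12.62 at 0 d. The groups did not overlap, yet the difference of -4.96 (standard error 1.65) was not called (adjusted p = 0.0771). AMY2 did not fall steadily between these times. It measured 5.94, 7.02 and 4.79 at 6 d, 6.90, 9.47 and 12.87 at 12 d, 12.53, 14.01 and 13.21 at 15 d, and 5.61, 12.70 and 7.83 at 18 d. The study, whose clusters left out 0 d, describes AMY2 as induced during chilling with a peak at 18 d. The calls of AS1, ERD14 and AT1G70000 were lost with 6, 4 and 2 of the 6 arrays left out, with adjusted p-values of up to 0.104, 0.119 and 0.0637.

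**Figure D3:**
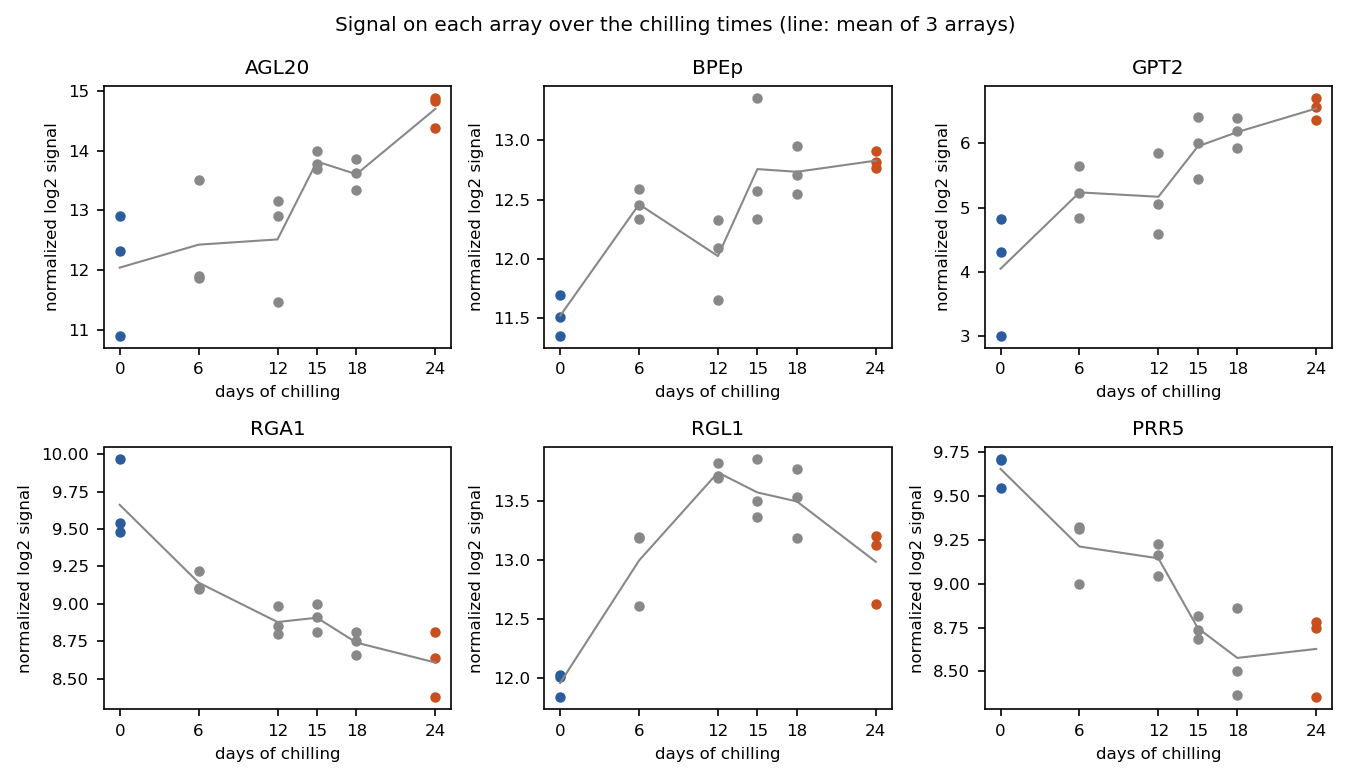
Points give the normalized log2 signal of each array against days of chilling (0, 6, 12, 15, 18, 24) for AGL20, BPEp, GPT2, RGA1, RGL1 and PRR5, and the line joins the means of 3 arrays. The 24 d arrays are orange and the 0 d arrays blue. The 0 and 6 d arrays and 2 of the 12 d arrays lay on slide 1. RGL1 was highest at 12 d, with a mean of 13.74.

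The times between were not tested here, and their values are given as a description. In order of time (0, 6, 12, 15, 18 and 24 d), AGL20 had mean signals of 12.05, 12.43, 12.52, 13.82, 13.61 and 14.70, so that the highest mean was the last. RGA1 had 9.66, 9.14, 8.88, 8.91, 8.74 and 8.61. Its 6 d mean, from the same slide as the 0 d arrays, already lay below that of 0 d. RGL1 had 11.96, 12.99, 13.74, 13.57, 13.49 and 12.98 at the same times, with its highest mean at 12 d. PRR5 had 9.65, 9.21, 9.14, 8.75, 8.58 and 8.63. Over the 675 probes called higher at 24 d, the median difference from the 0 d mean was 0.48, 0.55, 0.71, 0.81 and 0.88 from the earliest to the latest of the 5 chilled times. Over the 483 called lower it was -0.45, -0.52, -0.68, -0.89 and -0.97. All of these differences share the 0 d arrays with the comparison that chose the probes. The 24 d values also share its 24 d arrays, so the choice itself favours the largest medians at 24 d. Slide changed along with time: all 15 and 18 d arrays, 12 d replicate 3 and 24 d replicate 1 lay on slide 2, the other 24 d arrays on slide 3 and the rest on slide 1. A steady course was therefore not tested.

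Sugar breakdown was the list with the largest share of calls. Of 24 glycolysis probes 8 rose and 1 fell, and their median difference was 0.43. The share called was 37.5%, beside 17.9% of the probes in the gene tables used and 7.74% of all probes. Phosphofructokinase, which commits sugar to glycolysis, measured 14.02, 14.01 and 14.17 at 24 d, against 13.22, 13.15 and 13.08 at 0 d (CUST_10254). The arrays hardly varied within a time, and the difference was 0.92 (standard error 0.13, adjusted p = 0.0053). Fructose-bisphosphate aldolase (AT3G52930) rose by 0.95 (adjusted p = 0.0208). A pyruvate kinase (AT2G36580), the last enzyme of glycolysis, had 7.75, 7.79 and 8.46 at 24 d, against 5.19, 6.15 and 5.51 at 0 d. It rose by 2.38 (standard error 0.40, adjusted p = 0.00757), with 2 of 3 arrays above background at 0 d. PKP-ALPHA, a subunit of the pyruvate kinase of plastids, rose by 0.69 (adjusted p = 0.00867). Not all listed members belong to glycolysis proper: ALDH7B4 and a further aldehyde dehydrogenase (CUST_2299) rose by 0.80 and 0.85 (adjusted p = 0.0218 and 0.0118), and MAB1, a subunit of the pyruvate dehydrogenase that feeds the citrate cycle, rose by 0.53 (adjusted p = 0.0254). An unnamed member, CUST_7243, was above background on no 0 d array and at least 2.87-fold higher at 24 d (adjusted p = 0.0229). ADH1, an alcohol dehydrogenase of fermentation, was the member that fell. It measured 4.86, 3.75 and 4.31 at 24 d, against 8.57, 7.27 and 6.00 at 0 d, a difference of -2.98 (standard error 0.74, adjusted p = 0.0301). It was above background on 1 of 3 arrays at 24 d and on 2 of 3 at 0 d. With 1 array left out the list had between 4 calls (without 24 d replicate 2) and 9. Phosphofructokinase, PKP-ALPHA, CUST_2299 and AT2G36580 were called with each of the 6 arrays left out, while ADH1 had an adjusted p of 0.0959 without 0 d replicate 1.

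The citrate cycle and oxidative phosphorylation work in the mitochondrion, though some listed members act elsewhere. Of 14 probes of the citrate cycle and pyruvate entry 5 rose and none fell, with a median of 0.38. The share called was 35.7%, beside 17.9% of the probes in the gene tables used and 7.74% of all probes. Citrate synthase (ATCS), which starts the cycle, had 13.24, 13.57 and 13.73 at 24 d, against 12.78, 12.60 and 12.30 at 0 d. Its difference was 0.95 (standard error 0.21, adjusted p = 0.0181), and the slide 2 array lay lowest of the 24 d arrays. Fumarase (FUM1) rose by 1.23 (adjusted p = 0.0188), and 2 NADP-dependent isocitrate dehydrogenases, AT5G14590 and the cytosolic cICDH, by 0.77 and 0.49 (adjusted p = 0.017 and 0.0466). MAB1 is also on this list. Without 24 d replicate 3 the list had no call left, with FUM1 at 0.0672, ATCS at 0.0663, AT5G14590 at 0.0599 and cICDH at 0.145. The call of cICDH was lost with each array left out. Of 21 probes of oxidative phosphorylation 3 rose and none fell (14.3% called), with a median of 0.35. They were a subunit of complex I (AT2G20360, 0.67, adjusted p = 0.00922) and 2 pyrophosphate-splitting enzymes, the vacuolar proton pump AVP1 (0.62, adjusted p = 0.0214) and the soluble AtPPa1 (1.13, adjusted p = 0.0275). Only AT2G20360 of these was called with every array left out. AT3G11630, a peroxiredoxin that removes peroxides in plastids, was the 1 probe called among 13 antioxidant probes (7.69%), and rose by 0.71 (adjusted p = 0.011).

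Of 20 starch and sucrose probes 1 rose and 1 fell (10% called, beside 7.74% of all probes and 17.9% of those in the gene tables used). APL3, a subunit of the enzyme that makes the precursor of starch, rose by 1.13 (adjusted p = 0.0427), and GAE3, which makes a sugar for pectin, fell by 0.64 (adjusted p = 0.0337). GPT2 carries glucose phosphate between the cytosol and the plastid, where starch is made. Its probe (CUST_4119) measured 6.36, 6.56 and 6.71 at 24 d, against 4.31, 4.82 and 3.00 at 0 d. At 0 d it was above background on no array, so that GPT2 was at least 2.89-fold higher at 24 d (adjusted p = 0.00728), here and in the like cases against the higher of its own signal and the lowest signal well above background on each array. This call was kept with each array left out, while those of APL3 and GAE3 were lost, with adjusted p-values of up to 0.142 (without 0 d replicate 3 for APL3) and 0.116.

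**Figure D4:**
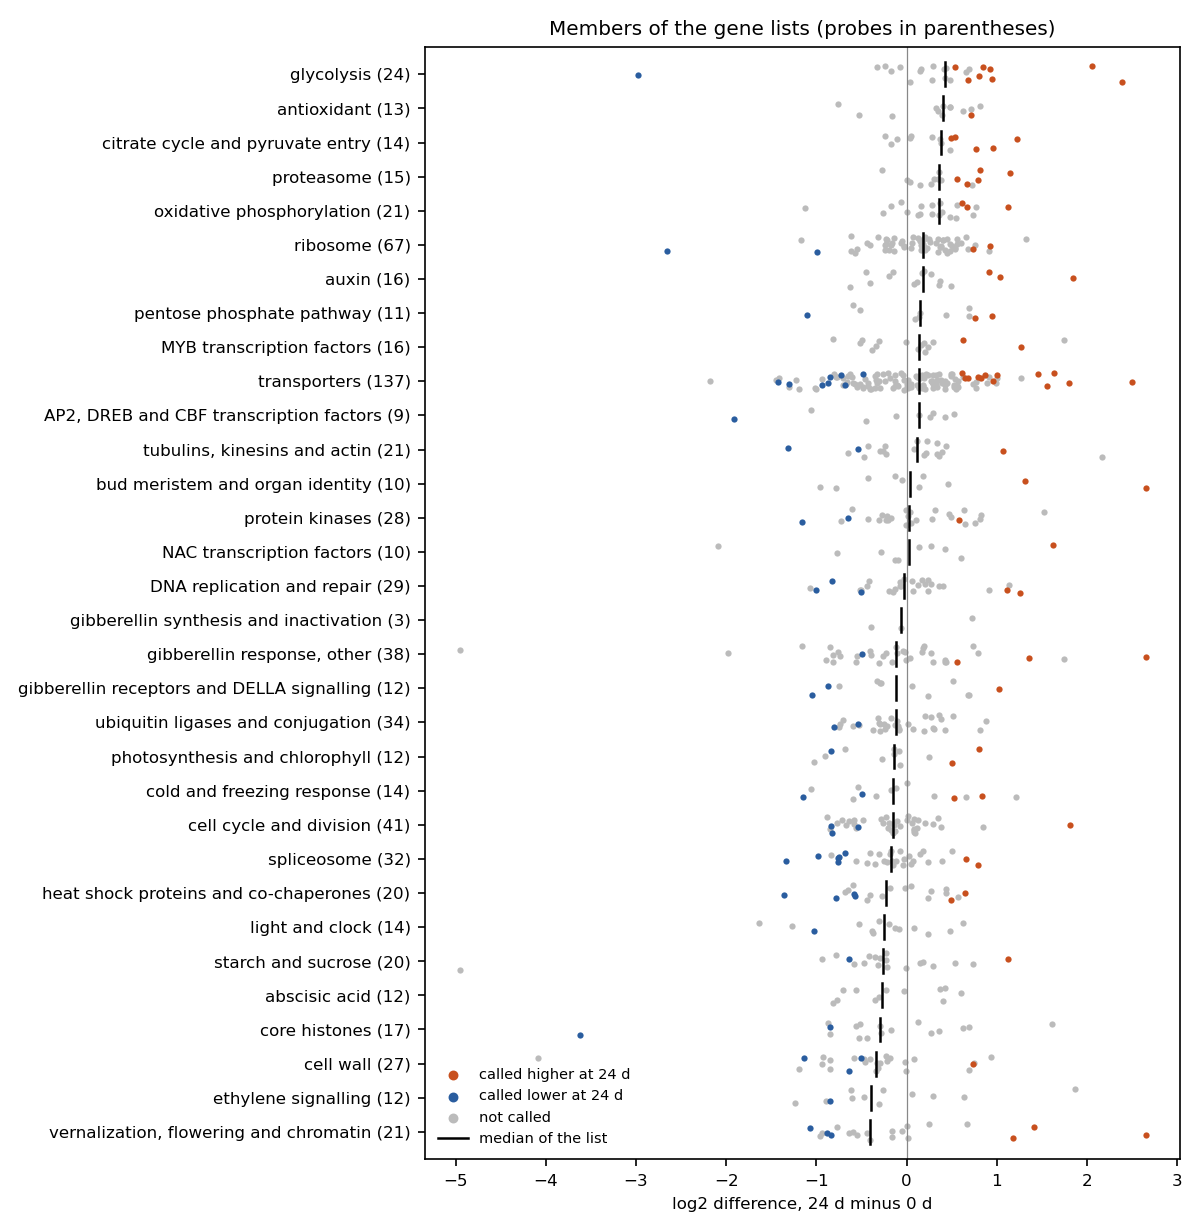
Each point is a probe of the named list, placed by its log2 difference of 24 d minus 0 d, orange where it was called higher at 24 d, blue where it was called lower and grey where it was not called, and black lines mark list medians. Lists are ordered by median, from 0.43 for glycolysis at the top to -0.41 for vernalization, flowering and chromatin at the bottom.

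Of 41 probes of the cell cycle and division 1 rose and 3 fell (9.76% called), and of 29 of DNA replication and repair 2 rose and 3 fell (17.2%). Neither share exceeded the 17.9% called of all probes in the gene tables used, while 7.74% of all probes were called. At an unadjusted p under 0.05 the cell cycle list had 1 higher and 7 lower, and the replication list 5 higher and 6 lower. PCNA1, the clamp that holds DNA polymerase on its template, measured 8.98, 9.41 and 9.60 at 24 d, against 10.30, 10.20 and 10.48 at 0 d, and fell beyond the spread of the arrays (standard error of the difference 0.22, adjusted p = 0.0199). TIL1, a replicative DNA polymerase subunit on both lists, and RAD50, a protein of break repair, fell by 0.83 and 0.50 (adjusted p = 0.0493 and 0.0461), as did APC8, part of the complex that ends mitosis, by 0.54 (adjusted p = 0.0357). KU70, which binds broken DNA ends, rose by 1.11 (adjusted p = 0.0379). SMC3, part of the cohesin ring that holds sister chromatids together, had 6.92, 5.94 and 6.47 at 24 d, against 4.10, 5.28 and 4.52 at 0 d. It rose by 1.81 (adjusted p = 0.0208), with 1 of 3 arrays above background at 0 d. None of these calls was kept with every array left out, PCNA1 coming nearest with 0.0632 without 0 d replicate 3. That of RAD50 was lost with each array left out.

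A probe for histone H4 (CUST_67) had the largest fall of the called probes with a name. It measured 8.14, 9.33 and 10.78 at 24 d, against 13.50, 12.24 and 13.36 at 0 d, a difference of -3.62 (standard error 0.83, adjusted p = 0.0216). The 24 d arrays did not reach the 0 d arrays, which the choice of the largest falls required, but were widely spread among themselves. The other H4 probes, CUST_13085 and CUST_6113, differed by -0.52 and 0.13 and were not called, and copies of histone genes are so alike that a probe may bind several. Of 17 core histone probes 2 fell and none rose (11.8% called, beside 17.9% of the probes in the gene tables used). The second that fell was an H2A probe (CUST_6143, -0.84, adjusted p = 0.0246). Without 24 d replicate 2 the adjusted p of CUST_67 was 0.0645, and without 24 d replicate 1 that of CUST_6143 was 0.0684. Of 21 probes of tubulins, kinesins and actin 1 rose and 2 fell (14.3% called, beside 17.9% of the probes in the gene tables used). Fimbrin, which bundles actin filaments, measured 10.95, 10.84 and 11.07 at 24 d, against 9.82, 9.88 and 9.96 at 0 d, and rose by 1.07 (standard error 0.17, adjusted p = 0.00548). A beta-tubulin (CUST_12380) fell by 1.32 (adjusted p = 0.0121), and TUB2 by 0.54 (adjusted p = 0.0255). Fimbrin and CUST_12380 were called with every array left out. Of 27 cell wall probes 1 rose and 3 fell (14.8% called, beside 17.9% of the probes in the gene tables used). Among them were CSLD3, a cellulose synthase-like protein (-1.14, adjusted p = 0.0247), and XXT5, which adds xylose to xyloglucan (-0.50, adjusted p = 0.0397). Without 24 d replicate 2 the cell wall list had no call left, with CSLD3 at 0.0722 and XXT5 at 0.104, and XXT5 was lost with each of the 6 arrays left out.

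Chaperone probes were called both ways. Of 20 heat shock probes 4 fell and 2 rose, with a median of -0.23. The share called was 30.0%, beside 17.9% of the probes in the gene tables used and 7.74% of all probes. HSP81-2, a chaperone of the HSP90 family, had 12.08, 12.85 and 12.87 at 24 d, against 14.12, 13.51 and 14.26 at 0 d, and fell by 1.36 (standard error 0.36, adjusted p = 0.038). HSP81-3 of the same family fell by 0.59 (adjusted p = 0.0371), HSP101, which dissolves protein aggregates, by 0.57 (adjusted p = 0.0271), and the small heat shock protein AT1G54050 by 0.78 (adjusted p = 0.049). The probes that rose, AT2G22360 and CUST_9942, belong to the co-chaperones, and rose by 0.49 and 0.65 (adjusted p = 0.033 and 0.0468). Without 24 d replicate 1 the list had no call left, and each single call was lost in some of the fits with an array left out, with adjusted p-values of up to 0.157. That of HSP81-3 was lost in all of these fits.

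Cold and freezing genes were called in both directions, with 2 of 14 probes higher and 2 lower (28.6% called, beside 17.9% of the probes in the gene tables used). A calmodulin-binding transcription activator, of the CAMTA family that switches on the cold response, rose by 0.83 (adjusted p = 0.0276), with 1 of 3 arrays above background at 0 d. FAD8, a desaturase that makes membrane lipids of plastids more fluid, measured 16.91, 17.10 and 17.06 at 24 d, against 16.29, 16.61 and 16.59 at 0 d, and rose by 0.52 (adjusted p = 0.0373). HOS15, which represses cold genes in Arabidopsis, fell by 1.15 (adjusted p = 0.0233), with 1 of 3 arrays above background at 24 d. ERD14 was the other probe that fell. ICE1 and a CBF4 probe (CUST_2102), upstream parts of the cold pathway, differed by -0.60 and -1.06 and were not called (adjusted p = 0.558 and 0.206), and P5CR, which makes proline, differed by 1.21 (adjusted p = 0.0608). These calls were lost without some arrays, that of FAD8 without 0 d replicate 1 (adjusted p = 0.112) and that of HOS15 without 24 d replicate 3 (0.0796), and with slide as a fixed block HOS15 had a difference of -0.05.

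Among the lists of auxin, ethylene and abscisic acid, auxin probes held the calls with the largest differences. Of 16 auxin probes 3 rose and none fell (18.8% called, beside 17.9% of the probes in the gene tables used). AT4G38840, of the SAUR family that auxin induces, had 13.10, 14.40 and 14.51 at 24 d, against 12.82, 12.34 and 11.33 at 0 d, and rose by 1.84 (standard error 0.40, adjusted p = 0.0183). Its slide 2 array lay more than 1 below the slide 3 arrays, and with slide as a fixed block the difference was 0.40. An auxin-repressed protein first cloned in Paeonia suffruticosa (CUST_24) rose by 1.04 (adjusted p = 0.0472), and an auxin carrier (CUST_11527) by 0.92 (adjusted p = 0.0451). EIN2, through which all ethylene signalling passes in Arabidopsis, was the 1 called of 12 ethylene probes (8.33%). It measured 11.90, 11.92 and 11.70 at 24 d, against 12.44, 12.82 and 12.81 at 0 d, and fell by 0.85 (standard error 0.24, adjusted p = 0.0458). EIL3, a relative of the ethylene transcription factor EIN3, was above background on no 0 d array and on 2 of 3 at 24 d, and was not called (1.86, adjusted p = 0.0508). None of 12 abscisic acid probes was called, with differences from -0.82 to 0.61 and a median of -0.27. ABI5, a transcription factor of this hormone, differed by -0.56 (adjusted p = 0.0946), and RD26, which it induces in Arabidopsis, by 0.61 (CUST_14724, adjusted p = 0.0563). The auxin and ethylene calls were all lost without some arrays, AT4G38840 having an adjusted p of 0.0697 and EIN2 one of 0.127 without 24 d replicate 3. Those of EIN2, CUST_24 and CUST_11527 were lost with each array left out.

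The proteasome degrades proteins that have been tagged for removal. Of 15 probes 5 rose and none fell, with a median of 0.36. The share called was 33.3%, beside 17.9% of the probes in the gene tables used and 7.74% of all probes. RPT1A, RPT4A and RPT6A, ATPases that unfold proteins at its entrance, rose by 0.80, 0.67 and 0.81 (adjusted p = 0.0313, 0.0261 and 0.0121). RPT6A measured 14.55, 14.36 and 14.38 at 24 d, against 13.66, 13.70 and 13.50 at 0 d, so that the arrays within a time lay far closer to each other than to those of the other time. PAD2, a subunit of the inner core, rose by 0.56 (adjusted p = 0.0241), and an unnamed member (CUST_3293) by 1.15 (adjusted p = 0.00991). RPT6A and CUST_3293 were called with each array left out, and 5 probes of the list were called under the 75th percentile and with no normalization between arrays. Without 24 d replicate 3 the count was 2. Of 34 probes of ubiquitin ligases and conjugation 2 fell and none rose (5.88% called). Of 67 ribosomal probes 2 rose and 2 fell (5.97% called, beside 7.74% of all probes and 17.9% of those in the gene tables used). Of 32 spliceosome probes 2 rose and 6 fell (25% called), and 1 that fell was CBP20, which binds the cap of messenger RNA (-0.98, adjusted p = 0.0407).

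NAC007 is a transcription factor of the family that forms xylem vessels in Arabidopsis. It had 11.15, 11.71 and 11.75 at 24 d, against 10.10, 10.29 and 9.36 at 0 d, a difference of 1.62 (standard error 0.27, adjusted p = 0.00712), and was the 1 called of 10 NAC probes. An AP2/ERF factor (CUST_15124) fell by 1.91 (standard error 0.37, adjusted p = 0.0121), with 8.56, 7.36 and 7.06 at 24 d, against 9.76, 9.92 and 9.03 at 0 d. It was the 1 called of 9 probes of AP2, DREB and CBF factors. The shares called were 10% for NAC, 11.1% for AP2, DREB and CBF, and 12.5% for MYB probes. Of the probes in the gene tables used 17.9% were called. BIM1, a bHLH protein of brassinosteroid signalling, fell by 1.85 (standard error 0.30, adjusted p = 0.00548). Its arrays stood at 8.62, 8.19 and 7.32 at 24 d, against 10.02, 9.91 and 9.76 at 0 d. MYB4 and UNE16, 2 of 16 MYB probes, rose by 1.26 and 0.62 (adjusted p = 0.0381 and 0.0188), and ZFP8, a zinc finger protein, rose by 1.55 (adjusted p = 0.0149). NAC007, CUST_15124 and BIM1 were called with every array left out, while MYB4 had an adjusted p of 0.122 without 0 d replicate 3 and ZFP8 one of 0.0586 without 24 d replicate 3.

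Transporters formed the longest list, with 13 of 137 probes higher and 8 lower at 24 d. That is 15.3% called, beside 17.9% of the probes in the gene tables used and 7.74% of all probes. An oligopeptide transporter (CUST_9823) measured 10.87, 10.65 and 10.58 at 24 d, against 8.77, 9.22 and 8.72 at 0 d, and rose by 1.80 (standard error 0.29, adjusted p = 0.00571). Its relative OPT3, which carries iron and peptides to growing tissue in Arabidopsis, rose by 0.95 (adjusted p = 0.0134). WBC11, which exports the lipids of the plant surface, rose by 1.63 (adjusted p = 0.0165), and NTF2A, which brings proteins into the nucleus, by 0.83 (adjusted p = 0.0372). A cation-transporting ATPase (CUST_3569) fell by 1.43 (adjusted p = 0.0111), with 9.26, 9.13 and 8.68 at 24 d, against 10.26, 10.71 and 10.39 at 0 d. CUST_9823, OPT3 and CUST_3569 were called with each array left out, WBC11 was not without 0 d replicate 3 (adjusted p = 0.0565), and NTF2A was lost with 5 of the 6 arrays left out (up to 0.114, without 24 d replicate 3).

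Of the 15 largest rises and 15 largest falls with a name, the ones not yet given covered several functions. A cytochrome P450 (CUST_1198) had 7.98, 8.60 and 8.14 at 24 d, against 6.75, 6.78 and 6.74 at 0 d, and rose by 1.48 (adjusted p = 0.00792). ALDH5F1, an aldehyde dehydrogenase, rose by 1.36 (adjusted p = 0.0111), a naphthoate synthase by 1.39 (adjusted p = 0.0371), ABC1 by 1.46 (adjusted p = 0.0241) and a resistance-type protein (CUST_11138) by 2.37 (adjusted p = 0.0261). The last of these also carries a gene symbol that names another protein. VAM3, which guides vesicles to the vacuole, fell by 1.74 (standard error 0.27, adjusted p = 0.00548), and a vacuolar protein sorting protein (CUST_5789) by 1.83 (adjusted p = 0.0358). ATNAP8, an ABC transporter subunit, was above background on no 24 d array. Its measured signal there was 4.59-fold lower (standard error of the log2 difference 0.63, adjusted p = 0.0479), an estimate and not a lower bound. Lower at 24 d were also OVA6, a tRNA synthetase (-1.73, adjusted p = 0.00712), a beta-galactosidase (-1.97, 0.0268), a LON3 protease (-1.65, 0.0377), a phosphoesterase (-1.40, 0.0132), a pentatricopeptide repeat protein (-1.38, 0.0198), DGK2, a diacylglycerol kinase (-1.37, 0.022), and a protein-binding protein (CUST_10504, -2.13, 0.0377). VAM3, the beta-galactosidase and CUST_10504 were above background on 1 of 3 arrays at 24 d, and ABC1 and CUST_11138 on 1 of 3 at 0 d. For 2-hydroxyphytanoyl-CoA lyase (-2.09, adjusted p = 0.0468) the spot of 24 d replicate 3 was flagged, so the value rests on 2 arrays of 24 d. With slide as a fixed block it had a difference of 0.18 and the naphthoate synthase one of -0.51. CUST_1198, ALDH5F1, VAM3, OVA6 and the phosphoesterase were called with each array left out, and the others named in this paragraph were lost with 3 to 6 of the 6 arrays left out, with adjusted p-values between 0.0674 and 0.188.

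**Figure D5:**
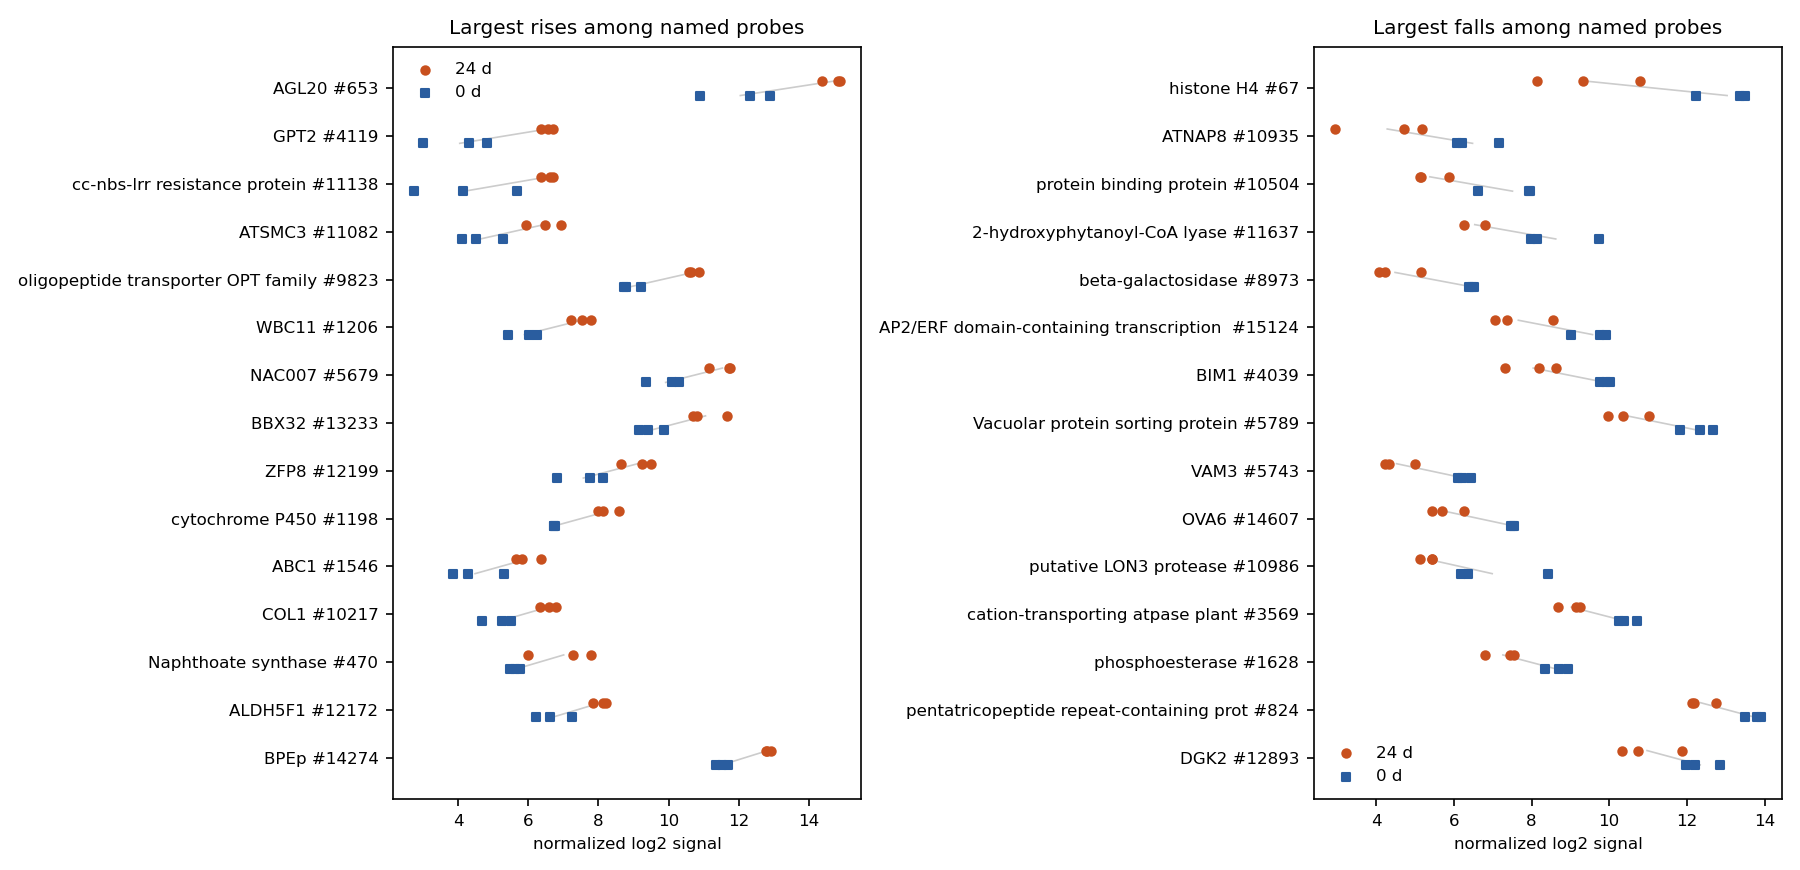
Normalized log2 signal of each array for the 15 largest rises (left) and the 15 largest falls (right) among called probes with a name, with orange circles for the 3 arrays of 24 d above blue squares for the 3 of 0 d, and grey lines between the means. Numbers after # are probe numbers. For all 30 probes the arrays of the 2 times did not overlap, which the choice of the probes required and which held for 29.8% of all probes.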

How the data were processed

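Feature Extraction (version 10.5.1.1 in the file headers, 10.7 in the study's methods) had background-subtracted and detrended the deposited intensity values, with no normalization between arrays. As an alternative, the authors' own log2 values, deposited after quantile normalization in GeneSpring, were tested. Intensities were taken to log2, flagged and control spots were left out, spots of each of 14957 probes were averaged and arrays were quantile-normalized. Each array correlated with its deposited values at 0.99985 or more. Each probe was tested in limma 3.58.1 with 1 mean per time over 18 arrays, and p-values were adjusted over all probes by Benjamini-Hochberg. The fit was tested on simulated data. Named genes are list members, the 15 largest rises and falls among called, named probes above background whose arrays did not overlap, and genes the study names. Gene names are those of the closest matches in other species in the study's tables, of which the rows held cover 3753 probes. Members and lists were chosen with earlier results of these data known, and their probes mostly come from the study's own calls. Alternatives covered normalization, background, dim probes, slide, replicate number, each array left out, the arrays fitted, the prior and the threshold. The planned mean signal is not among the columns, so normexp used the median signal.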

Additional observations from a re-analysis of the deposited data

How the results depend on the processing

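No slide held both times, only 3 arrays stood for each, and arrays with many dim probes (0 d replicate 3) limit low signals. The total of 1158 calls (675 higher, 483 lower) was 9 with slide as a fixed block (4 and 5), 691 as a random block (403 and 288), 3 with the slide 2 array alone for 24 d (1 and 2), 486 at 2-fold or more (260 and 226), and 0 with only the 6 arrays (0 and 0, with 3094 at an unadjusted p under 0.05). The cause was not tested, though fewer arrays entered these last fits. With 1 array left out it ranged from 378 (without 24 d replicate 3) to 953 (without 24 d replicate 1), with 204 to 497 higher and 174 to 456 lower, and it was 407 without 24 d replicate 2, 562, 778 and 525 without 0 d replicates 1, 2 and 3. Scaling moved the split: 58.3% of calls were higher in the main setting, 90.6% with no normalization between arrays (798 and 83, with the median of all probes at 0.25), and 414 against 387 with the 75th percentile. The deposited values gave 1140 calls, normexp 1310, the filter on dim probes 1282, the trended prior 1221 and the Tukey test of the methods 1403, unadjusted. Replicate numbers did not pair the samples (correlations of 0.04, 0.07 and 0.27), and with the replicate block there were 825 calls (470 and 355).

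The lists held 110 called probes (64 higher, 46 lower). The count was 2 with the fixed slide block (1 and 1) and 1 with the slide 2 array (1 and 0), none of them among the 110, 69 with the random block (24 lower), 42 at 2-fold (26 and 16), 0 with the 6 arrays (0 and 0), and 40 to 85 with an array left out (23 to 54 higher, 16 to 31 lower). With no normalization 11 were lower. Signs turned for few named probes. With the fixed slide block these were the naphthoate synthase CUST_470 (-0.51), CUST_11637 (0.18), GA20OX (0.44), SCL3 (0.99) and ICE1 (2.76), and with the slide 2 array SCL3 (0.32), CBF4 CUST_2102 (0.22) and ICE1 (0.15). GA20OX also turned with the 75th percentile (0.017) and no normalization (0.29), and with an array left out it ranged from -0.38 to 0.18, and SPY from -0.050 to 0.24. Of 128 named or listed called probes, 34 were called whichever array was left out.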

Other observations

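Besides histone H4 (CUST_67, -3.62), the called probes with very large differences included 3 with no gene name in the tables used, picked after their values were seen. CUST_3694, a predicted protein, measured 14.86, 14.58 and 14.84 at 24 d, against 3.0, 2.9 and 11.51 at 0 d, a difference of 8.96 (standard error 1.62, adjusted p = 0.00914 by limma). The third 0 d array stood far above the other 0 d arrays and below all 24 d arrays, and only 1 of 3 was above background at 0 d, so the size of the difference is not well measured. CUST_503 measured 8.83, 8.97 and 7.82 at 24 d, against 4.87, 5.46 and 5.27 at 0 d (3.34, adjusted p = 0.00548), with 1 of 3 arrays above background at 0 d. CUST_12707 measured 3.06, 3.31 and 4.36 at 24 d, against 6.49, 9.50 and 10.75 at 0 d, and was at least 38.2-fold lower at 24 d (adjusted p = 0.0252), where no array was above background. It was lost with 5 of the 6 arrays left out, with an adjusted p of 0.0885 without 0 d replicate 3.

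For some probes 24 d replicate 1, which lay on slide 2, stood apart from the other 24 d arrays, and the times did not separate. CUST_11666, for MYB13, measured 9.78, 3.50 and 3.45 at 24 d, against 3.37, 3.17 and 4.96 at 0 d. Its means at 15 and 18 d, whose arrays all lay on slide 2, were 3.38 and 3.32. CUST_7080 measured 7.86, 14.21 and 14.26 at 24 d, against 14.31, 14.04 and 13.88 at 0 d, with means of 13.96 and 14.23 at 15 and 18 d. Both were called with slide as a fixed block and neither without it.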
